A study of Drosophila melanogaster with 35 samples.

Results

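A set of 36 of the 15473 transcripts on the array was high in the larval wing and lower in the pupal control wing. In pupal wings that overexpressed E2F1 with DP it was held at least 1 log2 unit above control. The members were chosen by group means of log2 expression values. In control wings a member had to have a mean of at least 8 in larvae, to fall by at least 1.5 by 24h after pupa formation, and to move by less than 1 from 24h to 36h. In the line with E2F1 and DP it had to lie at least 1 above control at 24h and again at 36h, and less than 1 above control in larvae. In a line that overexpressed Cabut it had to lie within 0.5 of control at 24h and at 36h. All of these differences are log2 values that chose the members, so they are given below as a description, without a test. The Cabut larval arrays are the 1 group that the rule did not use.

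Transcript levels were measured on 35 1-colour arrays of dissected Drosophila melanogaster wings, 10 wings per sample, from 3 fly lines at 3 stages. Wings were taken from larvae that had left the food (L3), and from pupae at 24h and at 36h after they had formed. The line labelled dE2F1+dDP, here E2F1DP, carried UAS-dE2F1 and UASdDP, the line labelled Cbt carried UAS-Cabut, and the control carried neither. All 3 lines, the control included, also carried apterous-gal4 and UAS-GFP, with tubulin-Gal80temp.sens. as a repressor of Gal4. Animals were grown at 18 °C and moved to 28 °C to release transgene expression. E2F1DP at L3 had 3 arrays, since the submitters left out 1 at quality control, and each of the other 8 groups had 4. The apterous driver is active in dorsal cells of the wing, so a sample of whole wings holds cells that express the transgenes and cells that do not. Fewer cells of a type and less RNA per cell cannot be told apart in such samples.

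E2F1 is a transcription factor that binds DNA together with DP and switches on genes of DNA replication and cell division. The larval wing disc is a growing, dividing epithelium. In the pupa its cells leave the cell cycle, and differentiation programmes replace those of growth. Cabut is a zinc finger transcription factor of the Krüppel-like family. The files name features by FlyBase transcript ID only, and none of the 36 IDs is paired with a gene in the reference table used here, so the members are described by their levels and no role can be given to any of them. No wing, replication or cell type marker was matched either, so the labelled tissue was not checked against its markers.

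A pair of arrays stood apart at 24h. Over all transcripts, E2F1DP replicate 3 and control replicate 3 lay farthest from the other arrays of their groups, with root mean square log2 differences of 0.913 and 0.882, against 0.277 to 0.703 for the other 33 arrays. Over the members, E2F1DP replicate 3 was 0.26 below and control replicate 3 was 0.40 below the mean of the group's other arrays.

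The mean over the 36 transcripts shows the pattern that the rule selected, array by array. At L3 this mean log2 level was 11.99, 11.86 and 11.95 on the E2F1DP arrays. It was 11.66, 11.62, 11.53 and 11.67 on the Cbt arrays and 11.84, 11.77, 11.75 and 11.64 on the control arrays. All larval arrays thus lay within 0.5 log2 units of one another, with the E2F1DP arrays just above those of control.

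At 24h the mean was 11.58, 11.40, 11.27 and 11.62 in E2F1DP wings. It was 10.10, 10.12, 10.23 and 9.85 in Cbt wings and 9.87, 9.63, 9.45 and 10.06 in control wings. The lowest E2F1DP array stood 1.05 above the highest Cbt array and 1.21 above the highest control array, while Cbt and control overlapped.

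At 36h the mean was 11.15, 11.19, 11.14 and 11.29 in E2F1DP wings. It was 9.73, 9.40, 9.23 and 9.44 in Cbt wings and 9.31, 9.29, 9.15 and 9.57 in control wings. E2F1DP again lay apart, 1.58 above the highest control array at its lowest, and Cbt and control overlapped. Within E2F1DP the group mean went through 11.93 ± 0.07 (SD, n = 3) at L3, 11.47 ± 0.16 at 24h and 11.19 ± 0.07 at 36h (SD, n = 4 each). In control it went through 11.75 ± 0.08, 9.75 ± 0.27 and 9.33 ± 0.17 (SD, n = 4 each).

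**Figure D1:**
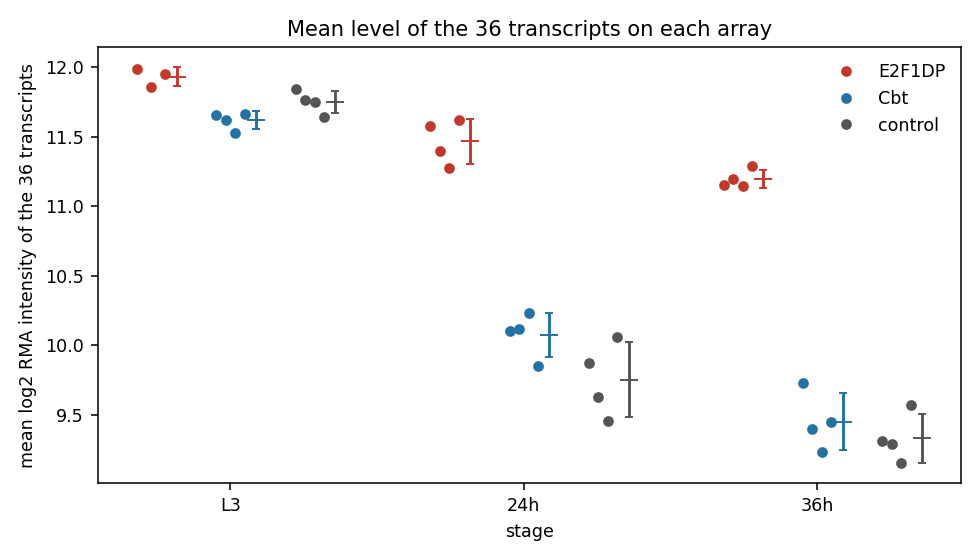
Mean log2 RMA intensity of the 36 transcripts on each array (points), by stage and line, with the group mean and SD over arrays beside the points. At 24h and 36h the E2F1DP arrays, at 11.14 to 11.62, lie above every Cbt and control array, and at L3 the lines lie close together.

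In the pupa the members differed in how far they stood above control. The difference of E2F1DP from control ran from 1.01 to 4.003 at 24h, with a median of 1.63, which is a 3.09-fold higher intensity. At 36h it ran from 1.00 to 5.84, with a median of 1.81 or 3.50-fold. Over all transcripts the medians were -0.08 and -0.04. At 24h 8 members and at 36h 10 members stood at least 2 above control, and 8 did so at both times. At the other end, 9 members at 24h and 7 at 36h lay within 0.25 of the limit of the rule. The difference was larger at 36h than at 24h in 22 of the 36.

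**Figure D2:**
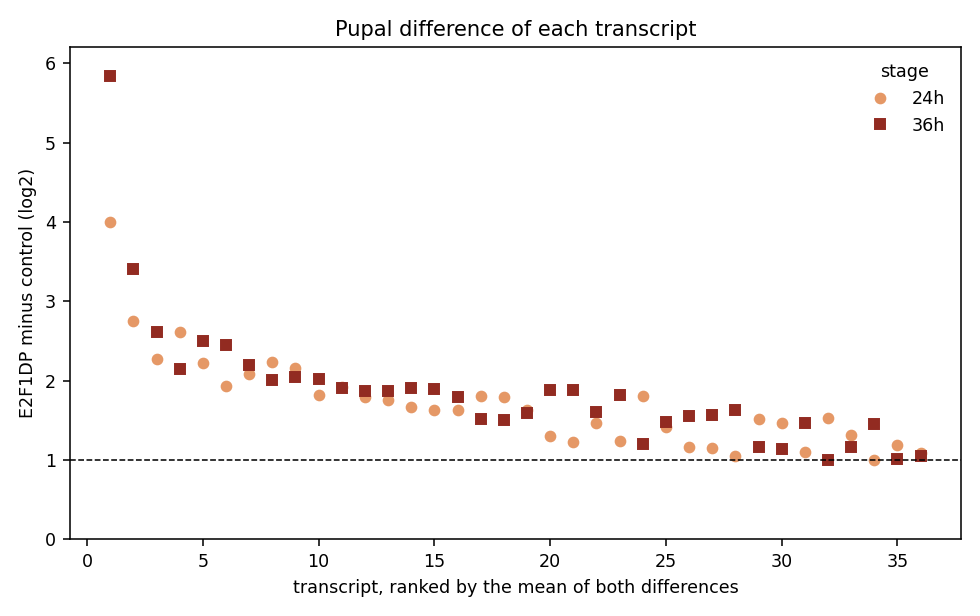
Difference of E2F1DP from control in log2 units for each of the 36 transcripts at 24h (circles) and 36h (squares), ranked by the mean of both; the dashed line is the limit of 1 in the rule. The first 2 transcripts stand apart at 36h, at 5.84 and 3.41, and most of the others lie between 1 and 2.5.

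Single arrays separated the lines for nearly all members. Every E2F1DP array was above every control array for 33 of 36 members at 24h, where this held for 9.43% of all transcripts, and for 35 of 36 at 36h, where it held for 14.5%. Every E2F1DP array was above every Cbt array for 32 members at 24h, where 8.07% of all transcripts had this, and for 34 at 36h, where 11.5% had it. These contrasts chose the members, so the counts describe the spread and are no support. In the 3 members with overlap at 24h the lowest E2F1DP array was replicate 3 each time. For example, the one ranked 34 by its differences was at 10.99 on that array, against 11.87 on the highest control array. The 1 member with overlap at 36h was also among those 3.

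FBtr0075059 had the largest differences. It was at 11.39, 11.12 and 11.17 in E2F1DP wings at L3, against 10.82, 11.06, 10.99 and 11.03 in control wings. At 24h it was at 12.75, 12.51, 11.70 and 11.86 in E2F1DP wings, against 8.59, 7.98, 7.39 and 8.85 in controls. At 36h it was at 13.00, 13.45, 12.95 and 12.94 in E2F1DP wings, against 7.26, 7.49, 6.91 and 7.31 in controls. The E2F1DP level was thus higher in the pupa than in the larva of either line, at 1.23 above the control L3 mean at 24h and 2.11 above it at 36h. The differences of 4.003 and 5.84 from control at the same stage are 16.0-fold and 57.4-fold. In Cbt wings it fell with the control, to between 6.90 and 7.11 at 36h.

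FBtr0080316 came next and stayed nearer its larval level. At 24h it was at 11.78, 11.84, 11.25 and 11.09 in E2F1DP wings, against 9.05, 8.93, 7.89 and 9.07 in controls. At 36h it was at 11.35, 11.89, 11.40 and 11.59 in E2F1DP wings, against 7.98, 7.97, 7.68 and 8.97 in controls. Its control L3 mean was 11.96 ± 0.18 (SD, n = 4), so the E2F1DP means lay 0.47 (24h) and 0.41 (36h) below that level. The differences from control were 6.75-fold and 10.6-fold.

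How much of the control fall from L3 was missing in E2F1DP wings can be given as a share of that fall in log2 units. Here 100% means that E2F1DP stood at the control L3 level. A share below 100% would be smaller on linear intensities, so it is not the share of RNA that was held. The median share was 86.5% at 24h and 78.7% at 36h. It ran from 39.99% to 151% at 24h and from 29.9% to 168% at 36h. At 24h 9 members and at 36h 6 members had a share of 100% or more, and the 6 had it at both times. For 1 of the 6, with shares of 136% and 101%, the control L3 level was loosely set, at 9.47 ± 1.22 (SD, n = 4). That SD was the largest of any member in this group of arrays. The E2F1DP mean lay within 0.5 of the control L3 mean for 23 members at 24h and 16 at 36h. It lay more than 0.5 below for 9 and 18 members at those times, and more than 0.5 above for 4 and 2. The description "kept on" therefore covers full, partial and more than full retention of the control larval level. The member with the largest share at both times was already 0.80 above control in E2F1DP wings at L3. Its E2F1DP mean rose by 0.07 from L3 to 24h.

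**Figure D3:**
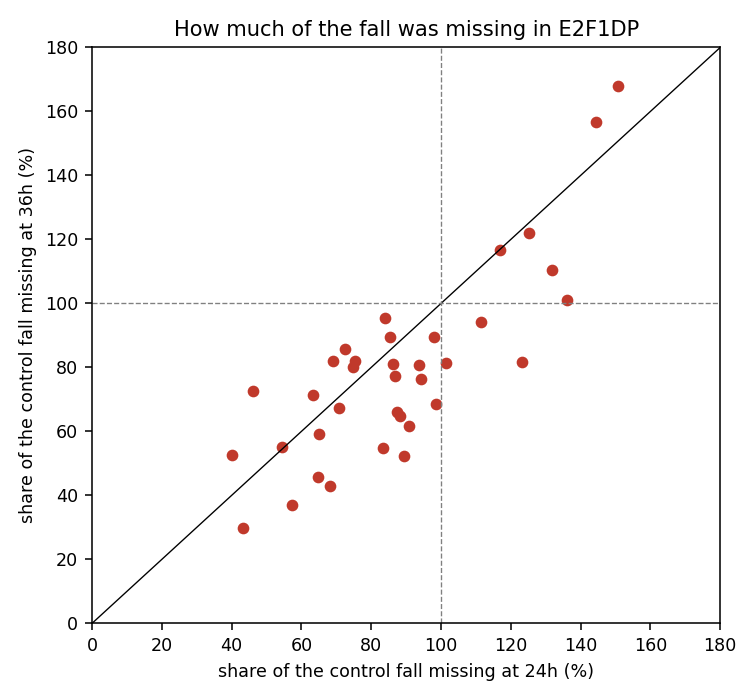
Share of the control fall from L3, in log2 units, that was missing in E2F1DP wings, in percent, with 1 point for each of the 36 transcripts. The share at 24h is horizontal and that at 36h vertical. The diagonal marks equal shares and the dashed lines 100%. The share was larger at 36h than at 24h for 12 transcripts, which lie above the diagonal, and 6 transcripts are at 100% or more on both axes.

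From 24h to 36h most members went down slightly within the E2F1DP line itself. The median difference of 36h from 24h was -0.31, against -0.03 over all transcripts, and without E2F1DP replicate 4 of 24h it was -0.17. Over the 563 other transcripts that met the same limits in control wings the median was -0.37. Of those 563, 240 were lower at 36h by at least 0.5 and 53 were higher by at least 0.5. At 36h 10 of 36 members were higher than at 24h, where 47.1% of all transcripts were, and 26 were lower. A fall of at least 0.5 was seen in 11 members, where 13.7% of all transcripts had one, and a rise of at least 0.5 in 2, where 15.4% had one. Both groups enter the rule through their differences from control, so these counts have no test. In control wings the median change over the same interval was -0.51, and 31 of 36 members were lower at 36h. The other 5 were higher, where 43.9% of all transcripts were. FBtr0077501 had the largest fall within E2F1DP. It was at 9.08, 8.999, 8.59 and 8.86 at 36h, against 10.25, 9.92, 10.00 and 10.22 at 24h, and the times did not overlap. Such a separation with 36h below was seen for 8 members and 8.14% of all transcripts, and with 36h above for 1 member and 9.51%. The share of its control fall, in log2 units, that was missing was 57.4% at 24h and 37.0% at 36h.

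In larvae the rule set an upper limit and no lower one on E2F1DP. The difference of E2F1DP from control at L3 ran from -0.52 to 0.80 over the members, with a median of 0.20, against -0.01 over all transcripts. It was above 0 in 25 of 36 members, where it was in 48.6% of all transcripts. The 150 transcripts that met every limit of the rule except those on Cbt had a median of 0.26, and 127 were above 0. The 563 others with the control pattern, which include these 150, had a median of -0.04, and 250 were above 0. Every E2F1DP array lay above every control array for 10 members, where 8.43% of all transcripts did so, and below for 1, where 7.81% did. This contrast is part of the rule and was not tested.

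The 36 members are a slice of a larger group. The control pattern, high at L3, fallen by 24h and changed by less than 1 from 24h to 36h, was met by 599 transcripts. Of these, 294 (49.1%) were at least 1 above control in E2F1DP at 24h, 216 (36.1%) at 36h, and 194 (32.4%) at both times. At L3 186 of the 194 were less than 1 above control. Of those 186, 144 were left out because Cbt was 0.5 or more away from control at 24h, and in all 144 Cbt was the higher one. Another 6 were left out on Cbt at 36h.

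Over the 150 transcripts left out on Cbt, the median difference of E2F1DP from control was 2.39 at 24h and 2.45 at 36h, against 1.63 and 1.81 over the members, and the ranges overlapped. It ran from 1.12 to 5.39 at 24h and from 1.00 to 5.61 at 36h in the 150, and the largest difference at 36h, 5.84, was that of a member. The control fall of the 150 from L3 to 24h had a median of -2.40, against -1.83 over the members. The median share of the fall that was missing was 101% at 24h and 89.5% at 36h in these 150. All of these values share control arrays with the rule and describe what it kept.

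Cbt and E2F1DP were both set against the same control arrays. The rule used Cbt and control at 24h and at 36h, so the values here describe the members and have no test. At 24h, within the limit of 0.5, Cbt was above control in 34 of 36 members, where 49.0% of all transcripts and 86.5% of the 563 others with the control pattern were above. The median difference was 0.36 over the members and 0.69 over those 563, which had no limit on it. It was over 0.4 in 17 members. At 36h Cbt was above control in 26 of 36, where 45.6% of all transcripts were, with a median of 0.19 and 1 member over 0.4. Every Cbt array lay above every control array for 7 members at 24h, where 6.45% of all transcripts did so, and for 1 member at 36h, where 7.13% did. The opposite order was seen for 0 members at 24h, against 3.08% of all transcripts, and for 0 at 36h, against 4.72%. Without the 2 arrays of 24h that stood apart, Cbt at 24h was above control in 28 members, with a median of 0.32. With each array centred on its median, Cbt at 24h was above control in 28 members and the median difference was 0.17, while the median of all transcripts moved to -0.20. Within Cbt wings all 36 members were lower at 24h than at L3, by a median of -1.38, and within E2F1DP wings 28 of 36 were, by a median of -0.45. Of all transcripts, 48.0% were higher at 24h than at L3 in Cbt wings and 45.5% in E2F1DP wings. Of the 563 others with the control pattern, 556 were lower in Cbt wings and 514 in E2F1DP wings.

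**Figure D4:**
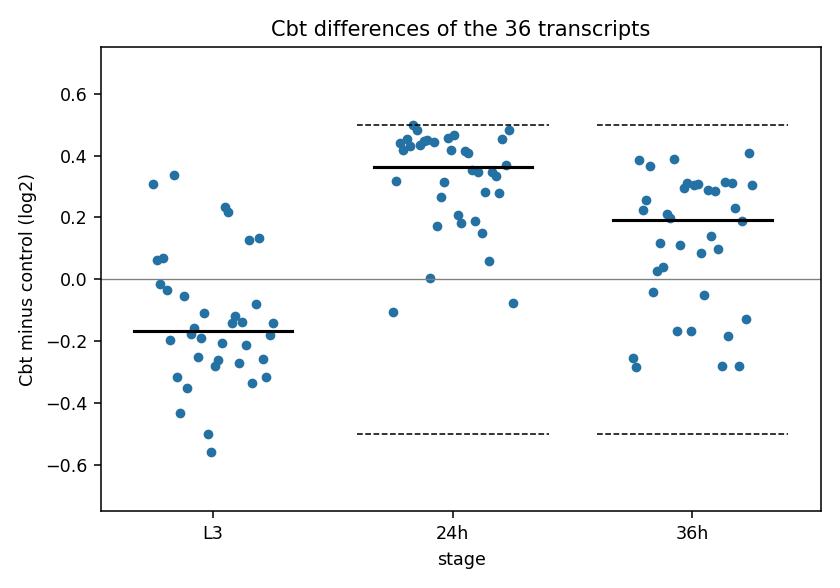
Difference of Cbt from control in log2 units for each of the 36 transcripts at L3, 24h and 36h (points), with the median as a bar; dashed lines mark the limits of the rule, which has none at L3. At 24h 34 points lie above 0, many of them just under the upper limit, and at L3 28 lie below 0.

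The Cbt larval arrays offer the 1 comparison that the rule did not choose on, although its reference, the control L3 arrays, enters the rule and was required to be high. No member was called between Cbt and control at L3 by limma at a Benjamini-Hochberg adjusted p under 0.05, where 0.504% of all transcripts were called higher and 0.265% lower. The lowest adjusted p of a member was 0.356. At an unadjusted p under 0.05, 0 members were higher, where 3.41% of all transcripts were, and 1 was lower, where 3.68% were. The median difference over the members was -0.17, against -0.01 over all transcripts, and 28 of 36 were below 0, where 52.1% of all transcripts were. The 563 other transcripts with the control pattern had a median of -0.11, and 368 of them were below 0. Array names hold a number that up to 4 of them share. No label says what it stands for, and it is treated here as a possible batch. With this number as a term in the model the median over the members was -0.0031 and 18 members were below 0. Only 1 such number was shared by both groups, with 1 array each, and there the median was -0.15, with 12 members above 0.

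The lowest differences of Cbt from control at L3 among the members were those of FBtr0077501 and FBtr0089881. FBtr0089881 was at 11.98, 11.70, 11.62 and 11.73 in Cbt wings, against 12.50, 12.03, 12.33 and 12.18 in control wings. The Cbt arrays lay below every control array, a lack of overlap seen for 2 members and for 3.74% of all transcripts, and for 0 members in the other direction, where 4.18% of all transcripts had it. The difference of -0.50 (SE 0.18) did not pass (limma adjusted p = 0.356). FBtr0077501 was at 11.08, 10.74, 10.74 and 10.91 in Cbt wings, against 12.07, 10.99, 11.09 and 11.56 in control wings. The groups overlapped, and the difference was -0.56 (SE 0.37, limma adjusted p = 0.886). Without control replicate 1, the highest of the 4, it was -0.34.

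**Figure D5:**
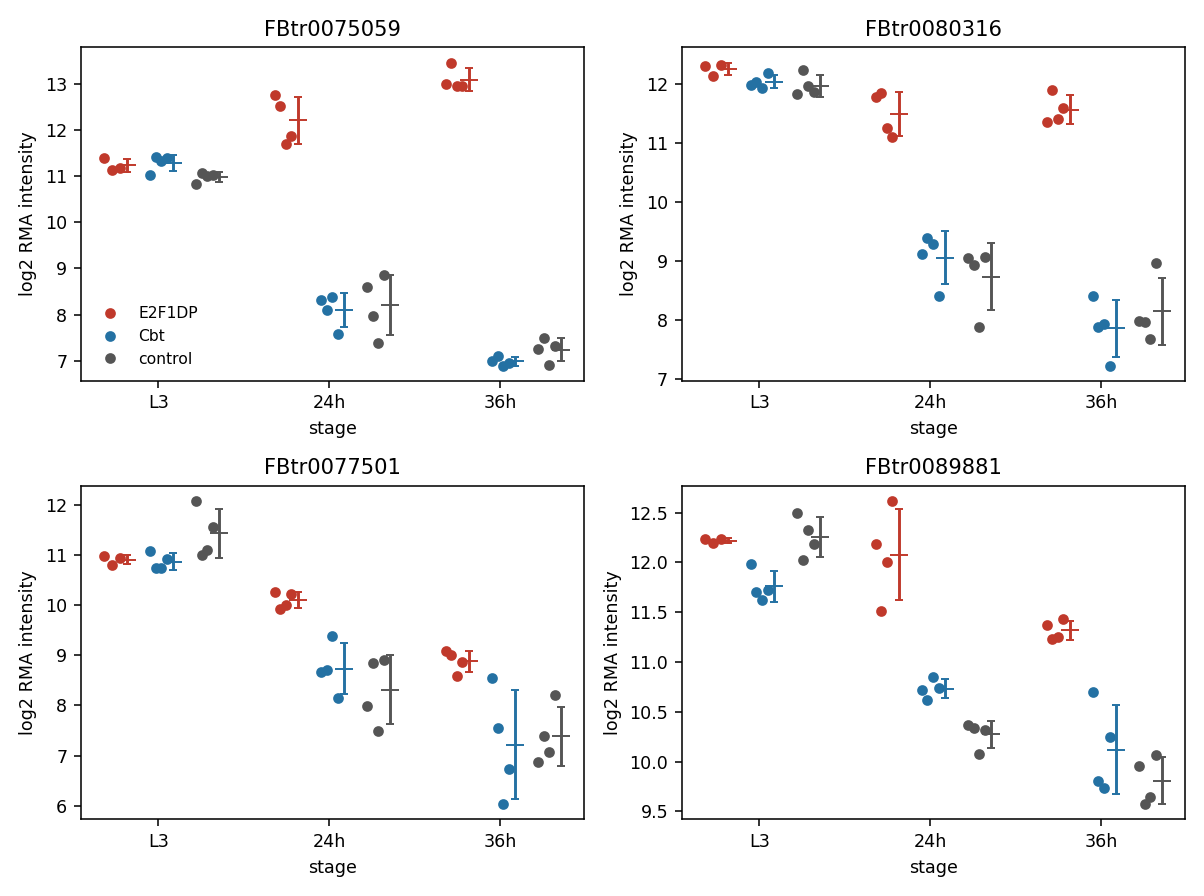
Log2 RMA intensity of the 4 transcripts given by ID on each array (points), by stage and line, with the group mean and SD over arrays beside the points; the vertical axes differ and do not start at 0. FBtr0075059 climbs above its larval level in E2F1DP wings, FBtr0080316 stays near it, and FBtr0077501 goes down in all lines with E2F1DP on top in the pupa. At L3 the Cbt arrays of FBtr0089881 lie below its control arrays, a difference that limma did not call.

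Without replicate 3 of E2F1DP and of control at 24h the difference of E2F1DP from control at 24h had a median of 1.62, was above 0 in 36 of 36 members and at least 1 in 32. The median share of the fall that was missing at 24h was then 88.7%. Among arrays whose names share a number, E2F1DP replicate 4 could be set against control replicates 1 and 3 at 24h. The median difference was 2.03 and all 36 members were above 0. For E2F1DP replicate 3 against control replicate 2 it was 1.71 and 34 were above 0. Both of these 24h contrasts hold an array that stood apart, control replicate 3 in the first and E2F1DP replicate 3 in the second. At 36h E2F1DP replicate 2 and control replicate 4 shared a number, with a median difference of 1.5996 and all 36 above 0. Over all transcripts the medians of these contrasts, in the same order, were -0.0013, -0.034 and -0.023. The rule chose the members on these same arrays, so the values of this paragraph are a description and no support.

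Membership rested on the limits and on the 24h arrays of control and of Cbt. Re-applying the rule without each of the 31 arrays it uses gave 23 to 39 members, and 6 of the 36 were members every time. Leaving out control 24h replicate 2 or replicate 4 lost 15 of the 36 in each case. Without replicate 4, 14 of the 15 were lost because Cbt then lay 0.5 or more from control at 24h. Without replicate 2, 6 were lost on that limit and 6 on the control fall. Without replicate 3, the array that stood apart, 13 were lost, 4 of them on the E2F1DP limit at 24h and 4 on the Cbt limit at 24h. The limit on the control change from 24h to 36h lost 4 and the control fall 3, some on more than 1 of these. The E2F1DP limit at 24h lost 0 members without replicate 4 and 1 without replicate 2. Leaving out control 24h replicate 1 lost 8 of the 36. Without Cbt 24h replicate 4, 9 were lost, and without Cbt 24h replicate 1, 6 were lost. At the edges of the rule, the smallest control fall of a member was -1.53, and the nearest transcript that missed on this alone had -1.47. For E2F1DP above control at 24h these values were 1.01 and 0.82, and at 36h 1.00 and 0.96. For the size of the Cbt difference they were 0.50 and 0.54 at 24h, and 0.41 and 0.50 at 36h. For the size of the control change from 24h to 36h they were 0.99 and 1.02, and for E2F1DP above control at L3 0.80 and 1.01.

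The members' larval levels lay well inside the range of the array, while some of their pupal control levels were low. The control L3 means ran from 9.09 to 14.64 with a median of 11.90, against 9.69 over all transcripts, and the rule set the floor of 8. The medians of their pupal control means were 9.71 at 24h and 9.64 at 36h, against 9.61 and 9.68 over all transcripts. The lowest pupal control mean of a member was 6.53, at 36h. In 46 transcripts with the control pattern, both other lines stayed within 0.5 of control at 24h and 36h. Their control means had medians of 6.60 at 24h and 6.50 at 36h. None of the 36 had a pupal control mean in the dimmest 25% of transcripts, which lie under 6.196. Single control arrays did go below that, such as 5.83 for 1 member on replicate 3 at 24h. Of the members, 24 (66.7%) were read by 5 probes and 12 by 4, where 65.3% of all transcripts had 5.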

How the data were processed

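For each array the authors deposited an RMA value per FlyBase transcript, a linear intensity, beside a count of its probes, per the file headers. The series table they deposited holds the log2 of these values (largest difference 5.00e-09). RMA is named in the submitters' processing notes, and its settings, version and annotation release are not given in the sources used here. Intensities ran from 14.6 to 64595 and array medians from 9.25 to 10.02 (log2). How precise a value is depends on how many arrays its group has. The labels call the samples of a group independent replicates.

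Group means of log2 values chose the members, as the report states. One limma model (R 4.3.3, limma 3.58.1) held a mean for each of the 9 groups and took in every array and all 15473 transcripts, with Benjamini-Hochberg adjustment over all of them. It was tested on simulated data. The other values came from Python 3.11.15 with numpy 2.4.6 and pandas 2.3.3, and figures from matplotlib 3.10.9. The number shared by up to 4 array names, which no label explains, was tried as a batch. No transcript ID of a member was found in the RefSeq table for Release 6. On the whole array 44 IDs were found, 17 of them under 1 gene. None of the 81 entries of 12 gene lists matched one of those 17: replication, mitosis, cuticle, ecdysone response, wing patterning and 7 lists of cell type markers. The members given by ID are the 2 with the largest mean of both pupal E2F1DP differences and the 2 with the lowest Cbt difference at L3. The members, lists and tests were chosen with earlier results of these data known. Alternatives were another scaling, the array-name number or the replicate number as a block, array weights, only the compared groups, a moderation trend, a filter on dim transcripts, group medians, other limits and leaving out arrays.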

Additional observations from a re-analysis of the deposited data

Results flagged for a closer look

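In 40 groups of 4 arrays, those of the 4 transcripts given by ID and of the mean over the 36, 3 single arrays stood far from the other arrays of their group, measured by the gap to the nearest over the whole range. Chance gives about 1 in 20 groups, and these groups share arrays. FBtr0075059 was at 13.45 on E2F1DP replicate 2 at 36h, with the nearest array at 13.00. FBtr0080316 was at 7.89 on control replicate 3 at 24h, with the nearest at 8.93, and FBtr0089881 was at 10.08 on the same array, with the nearest at 10.32. That array was the lowest of its group for 20 of the 36 members.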

How the results depend on the processing

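The count of 36 members depended on the limits: every difference limit stricter by 0.25 left 1 member and looser by 0.25 gave 145. Leaving out 1 array at a time gave 23 to 39, with 23 without control 24h replicate 2, where 21 of the 36 stayed. The other settings gave 53 with median centring (33 shared), 41 with quantile normalization (34 shared), 33 with group medians (25 shared), 30 without control and E2F1DP replicate 3 of 24h (22 shared) and 36 without dim pupal controls. No member was called at L3 between Cbt and control by limma under any of the 16 alternatives, with 1 to 4 members at an unadjusted p under 0.05 and a lowest adjusted p of 0.0955 (array weights). Over all transcripts 78 were called higher and 41 lower, against 254 and 204 with array weights and 37 and 14 with the array-name number as a block. The median Cbt difference at L3 was -0.20 to -0.12 when 1 array was left out and -0.0031 with the array-name number as a block. The median share of the fall that was missing stayed between 82.7% and 92.7% at 24h and between 75.3% and 79.5% at 36h, and the median E2F1DP difference of 36h from 24h between -0.46 and -0.17 (without E2F1DP replicate 4 of 24h). The Cbt difference at L3 of FBtr0077501 was -0.34 without control replicate 1 and with array weights, against -0.56, and that of FBtr0089881 was -0.32 with the array-name number as a block, against -0.50. With a replicate block the median Cbt difference at L3 was -0.17 with 0 members called, and 85 transcripts were called higher and 48 lower. At L3 the replicate numbers do not pair Cbt with control: the deviations of same-numbered arrays correlated at 0.16, 0.15, -0.24 and -0.13, and 2 of these 8 arrays correlated best with their own number. Pairing was not checked for other groups, which have no test.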

Other observations

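With the group means removed, the members deviated together from array to array. The mean correlation between pairs of the 36 was 0.20 over the 35 arrays, against 0.18 over the 563 other transcripts with the control pattern and 0.02 over all transcripts. Without control and E2F1DP replicate 3 of 24h it was 0.19, against 0.13 and 0.02. These correlations are a description, since the transcripts share the same arrays and their scaling.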
